A study of Mus musculus with 38 samples.

Results

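The comparison described here set 3 resting TurboID-PSD95 streptavidin pulldowns against 3 resting Pan-TurboID pulldowns, 6 of the 38 libraries of a PL-Ribo-seq study of primary cortical neurons from the mouse. The libraries were taken by their labels (bait, fraction, treatment) and were paired by replicate number. PL-Ribo-seq combines proximity labeling with ribosome profiling: the biotin ligase TurboID tags proteins near it during 30 min with biotin, streptavidin collects the tagged ribosome complexes, and the mRNA fragments that ribosomes shield from nuclease (footprints) are sequenced. All 6 libraries came from resting neurons, which received cycloheximide for 2 min, to hold ribosomes in place, before the biotin. The Pan group carried a lentivirus with Pan-TurboID, a ligase without a localization signal. The PSD95 group carried a lentivirus that the labels call PSD95-TurboID (TurboID-PSD95 here, by the order of its parts), a fusion of TurboID, superfolder GFP and the coding sequence of rat PSD95 between the untranslated regions of PSD95. Both were induced with doxycycline, and the cultures were not sorted, so that glia and dividing cells could contribute footprints. For comparison, the same cultures gave 6 input libraries (all footprints, 3 per bait), and 6 further pulldowns came from neurons held in tetrodotoxin and DL-AP5 and then depolarized with 55 mM KCl for 1 h. The depolarized neurons received biotin after the KCl, during 30 min in fresh medium with the same blockers.

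PSD95, encoded by Dlg4, is a scaffold of the membrane-associated guanylate kinase (MAGUK) family in the postsynaptic density of excitatory synapses, where it holds glutamate receptors, adhesion proteins and signaling enzymes. Some neuronal mRNAs travel in granules into dendrites and are translated there, near synapses. A ligase tied to PSD95 was built to tag ribosomes of that compartment, and the ligase without a signal tags ribosomes throughout the cell, so the contrast of these pulldowns asks which mRNAs gave more or fewer ribosome footprints around the localized bait.

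Total counts per resting pulldown ranged from 7678561 (TurboID-PSD95, replicate 3) to 30637088 (Pan-TurboID, replicate 3), and 2047169 to 14636019 counts of the same libraries fell in coding sequence (CDS), taking 1 transcript, the longest, for each gene. Levels below are counts scaled by TMM to a common CDS total (CPM), and fold changes are log2 values of TurboID-PSD95 over Pan-TurboID. The label of neuronal culture was checked against markers: all 9 pan-neuronal markers passed the filter on low counts, with a summed level of 4742 to 5034 CPM with TurboID-PSD95 and 4877 to 4936 CPM with Pan-TurboID, while none of 12 microglial markers passed. Glial markers were found as well: 11 of 12 astrocyte markers passed, with a summed level of 997 to 2002 CPM over the 6 pulldowns. Of 11 oligodendrocyte lineage markers, 8 passed, with 151 to 564 CPM. The study describes its cultures as free of non-neuronal cells by staining and by transcripts. Whether these footprints came from glia was not tested. Over 7741 genes, pulldowns of the same replicate number and different bait correlated at Pearson 0.968 to 0.981. Pulldowns of different number and the same bait correlated at 0.946 to 0.952 for TurboID-PSD95 and at 0.965 to 0.972 for Pan-TurboID. These correlations are across genes, which are not independent replicates.

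Across the CDSs, TurboID-PSD95 and Pan-TurboID pulldowns were within 2-fold of each other for most of the more abundant genes. The quasi-likelihood test of edgeR, with replicate number as a block, was run on 13003 genes, and 2 passed a false discovery rate (FDR) of 0.05, which is 0.0154% of the genes. Dlg4, the gene of the bait, was higher (0.00769%), and Cebpz, which encodes a nucleolar protein of ribosome biogenesis, was lower (0.00769%). An unadjusted p under 0.05 was found for 545 genes (4.19%), 176 higher (1.35%) and 369 lower (2.84%). The median log2 fold change over all genes was -0.0079. Among 7988 genes with a mean log2 CPM of at least 4, 3 had a log2 fold change of 1 or more, 4 of -1 or less, and 7680 (96.1%) lay between -0.5 and 0.5. The median standard error there was 0.21, and the 95% interval of the fold change stayed within 2-fold in either direction for 7523 of these genes (94.2%). It stayed within 1.5-fold for 3997 of them (50.0%), so differences of that size were not excluded for the others. The methods speak of biological replicates without saying which animals each held. The p-values rest on a spread estimated over all 24 libraries of the KCl experiment, inputs and depolarized libraries included. They do not rest on these 3 samples per group alone.

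**Figure D1:**
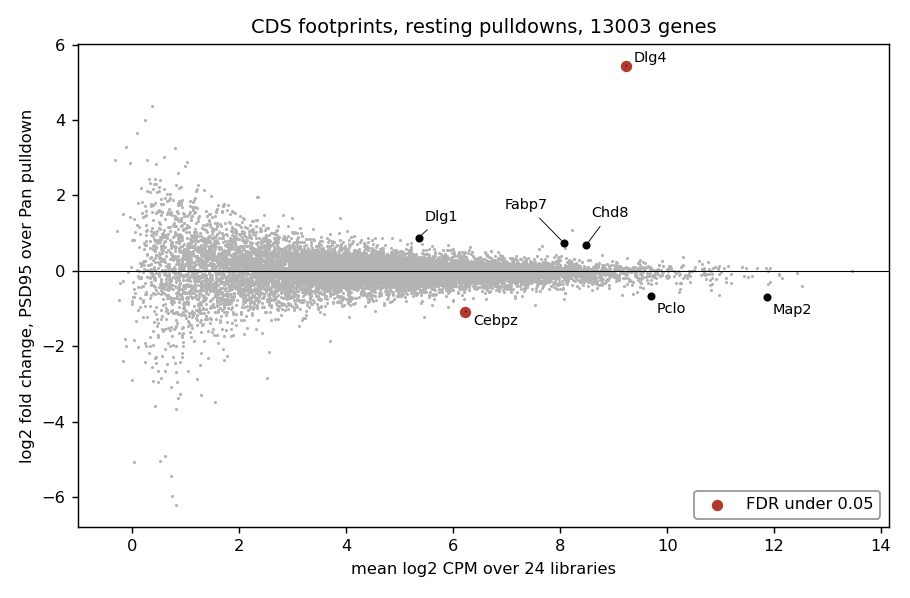
Log2 fold change of TurboID-PSD95 over Pan-TurboID pulldowns against the mean log2 CPM for 13003 genes, 1 point per gene. The red points are Dlg4 at 5.43 and Cebpz at -1.08, which passed an edgeR FDR of 0.05, black points are other genes named in the text, and the spread of the remaining genes widens only at low counts.

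The number of calls differed between fits. With the 6 resting pulldowns alone in the fit, 120 of 12199 genes passed (0.984%), 43 higher (0.352%) and 77 lower (0.631%), and with limma's voomWithQualityWeights on all 24 libraries, 161 passed (1.24%), 58 higher (0.446%) and 103 lower (0.792%). These lists shared 94 genes, 78.3% of the first and 58.4% of the second. The common biological coefficient of variation was 0.154 in the fit of 6 libraries, which has 2 residual degrees of freedom, and 0.21 in the fit of 24, which has 12.

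Dlg4 stood far apart from all other genes. The construct carries PSD95 sequence of the rat, so footprints on the viral and on the endogenous mRNA were counted together and cannot be told apart in the sum. In the transcript chosen for the fit, Dlg4 had 1504, 1419 and 3092 CPM in TurboID-PSD95 pulldowns 1 to 3 and 40.5, 41.2 and 51.5 CPM in Pan-TurboID pulldowns 1 to 3. The lowest TurboID-PSD95 value was far above the highest Pan-TurboID value, and replicate 3 was the highest with both baits. The log2 fold change was 5.43 (SE 0.43, edgeR FDR 2.8e-07), or 43.2-fold. Without replicate 2 it was 5.61 and did not pass (edgeR FDR 0.802). In the inputs of the same cultures, Dlg4 had 122, 152 and 190 CPM with TurboID-PSD95 and 50.7, 49.8 and 58.8 CPM with Pan-TurboID, a log2 difference of 1.52 (SE 0.37) that did not pass (edgeR FDR 0.999). Beyond the difference between inputs, the pulldown difference was 3.92 (SE 0.53, edgeR FDR 0.0034), and Dlg4 was the only gene of 13003 (0.00769%) to pass in that contrast, in which 278 (2.14%) had an unadjusted p under 0.05. It no longer passed there with the longest CDS per gene, without the replicate block or without replicate 2.

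The chosen transcript, the longest with its untranslated regions, holds 822 of the 2304 coding bases of the longest Dlg4 CDS (35.7%), so the whole coding region was also described by segment. Over the full CDS, Dlg4 reached 4195, 3780 and 10095 CPM in TurboID-PSD95 pulldowns and 133, 150 and 155 CPM in Pan-TurboID pulldowns. With the longest CDS per gene in the fit, the log2 fold change was 5.28 (SE 0.61, edgeR FDR 0.0059), and the input difference was 1.63 (SE 0.53). The excess ran along the whole coding region. All 20 coding segments of the PSD95 reading frame that starts in the exon at chr11:70018920-70018949 (mm10, plus strand, 2175 coding bases in sum) held at least 60 counts and were higher with TurboID-PSD95 in 3 of 3 pairs. In the full-length annotation, which lacks that first exon, the ratio of mean CPM lay between 23.7 and 180 over 19 segments with at least 60 counts, with a median of 38.4. These ratios rested in part on replicate 3, and without it they lay between 15.3 and 89.96 with a median of 26.0. The first exon itself had a ratio of 662, over 0, 0 and 2 counts with Pan-TurboID.

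The amino-terminal exon and the untranslated regions beside it behaved differently, and the exon is printed to show where the boundary lies. Capitals mark the start codon in the 30 coding bases of that exon (GRCm38, the assembly of mm10, plus strand, chr11:70018920-70018949).
Dlg4 first coding exon: ATGgactgtctctgtatagtgacaaccaag
These bases held 182, 86 and 103 counts in TurboID-PSD95 pulldowns and 0, 0 and 2 counts in Pan-TurboID pulldowns, and the groups did not overlap. The 479 bases of 5′ untranslated region that end at this start codon had 29.0, 74.9 and 28.3 CPM with TurboID-PSD95 and 48.5, 78.1 and 58.5 CPM with Pan-TurboID. The groups overlapped there, and the excess of the coding segments was absent from this stretch. The methods place a 5′ untranslated region of PSD95 in the construct too. In the construct, TurboID and GFP lie between that region and the PSD95 reading frame. The 3′ untranslated region of 837 bases had at most 2.93 CPM in any of the 6 libraries. Among the coding segments, the 296-base exon at chr11:70039023-70039318 was the longest and held the most counts, with 4632, 2489 and 2970 counts against 166, 106 and 312. Neighboring segments of 37 and 28 bases (chr11:70041772-70041808 and chr11:70041901-70041928) were much higher in TurboID-PSD95 pulldown 3 than in 1 and 2, with 42.9, 19.3 and 334 CPM and with 40.1, 45.0 and 696 CPM.

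**Figure D2:**
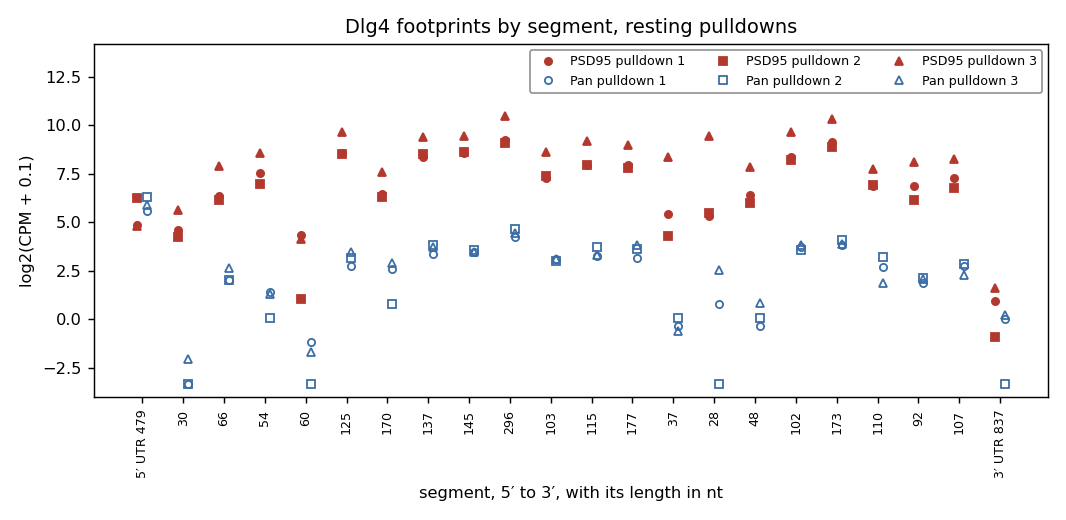
Footprints of Dlg4 in the 6 resting pulldowns as log2(CPM + 0.1), for the 5′ untranslated region, the 20 coding segments and the 3′ untranslated region in transcript order, with the segment length in bases on the x axis. Filled red symbols (TurboID-PSD95) lie above open blue symbols (Pan-TurboID) in every coding segment and mix with them in the 5′ untranslated region; symbols at the bottom of the plot are counts of 0.

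Dlg1, which encodes SAP97, a MAGUK scaffold closely related to PSD95, had the largest rise among 29 postsynaptic scaffolds and PSD95 partners. It had 65.6, 80.3 and 83.9 CPM with TurboID-PSD95 and 49.8, 42.1 and 33.5 CPM with Pan-TurboID. The groups did not overlap, and the log2 fold change was 0.88 (SE 0.29), which did not pass in the 24-library fit (edgeR FDR 0.972) and passed with the 6 resting pulldowns alone (edgeR FDR 7.8e-05) and with limma voom (FDR 0.0083). The excess lay mainly in 1 of 25 coding segments, an exon of 137 bases at chr16:31793504-31793640. That exon had 29.5, 39.2 and 58.0 CPM with TurboID-PSD95 and 3.46, 4.74 and 2.39 CPM with Pan-TurboID, a ratio of 11.98. It made up 45.0%, 48.8% and 69.2% of all Dlg1 footprints with TurboID-PSD95 and 6.94%, 11.2% and 7.11% with Pan-TurboID. With this exon left out, Dlg1 had 36.1, 41.1 and 25.9 CPM against 46.4, 37.4 and 31.1 CPM, and its log2 fold change turned to -0.14 (SE 0.23, edgeR FDR 1.0). Of the other 24 segments, 1 was higher in 3 of 3 pairs, by little: the 173 bases at chr16:31857892-31858064 had 4.63, 6.49 and 4.39 CPM against 3.57, 4.97 and 2.95 CPM.

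Dlg4 has an exon of the same length in the same place of its reading frame, and 110 of the 137 mouse bases (80.3%) are identical between the genes. The 30 bases of the exon with the highest identity between Dlg4 and Dlg1 are printed to show how alike the genes are, at most, at the length of a footprint. Capitals mark the 26 of 30 bases that are identical between the mouse genes (GRCm38, plus strand, chr11:70031387-70031416 for Dlg4 and chr16:31793536-31793565 for Dlg1).
Dlg4 window: AAcCAGCACATcCCTGGaGATAAtAGCATC
Dlg1 window: AAtCAGCACATtCCTGGtGATAAcAGCATC
The corresponding exons of Dlg2 and Dlg3, which encode the other MAGUK scaffolds of this subfamily, are identical to Dlg4 at 75.2% and 78.8% of the bases. The longest unbroken identity with Dlg4 is 13 bases for Dlg1 and 14 for both Dlg2 and Dlg3. Their levels overlapped between the baits, at 2.78, 6.49 and 0.976 CPM against 3.81, 7.58 and 3.37 CPM for Dlg2 and 7.01, 4.11 and 12.2 CPM against 8.42, 13.3 and 9.96 CPM for Dlg3. Whether footprints of the rat sequence in the construct were assigned to the Dlg1 exon was not tested, since only mouse sequence was at hand. In the depolarized pulldowns, the Dlg1 exon held 13, 218 and 394 counts with TurboID-PSD95 and 9, 7 and 0 with Pan-TurboID, so that pairs 2 and 3 showed the excess and pair 1 held few counts with both baits. Among 77032 CDS segments outside Dlg4 with at least 60 counts over the 6 resting pulldowns, in 24-library CPM with 0.2 CPM added, this exon was the only 1 more than 8-fold higher on average, and 11 were more than 8-fold lower. In each of the 3 resting pairs, 2 segments were more than 4-fold higher, this exon among them, and 15 were more than 4-fold lower. None of those 15 was lower in all 3 depolarized pairs, and 8 were higher there on average. The higher and lower sides cannot be set against each other, since Pan-TurboID libraries were deeper in sum and a segment can pass the filter on raw counts through them alone.

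**Figure D3:**
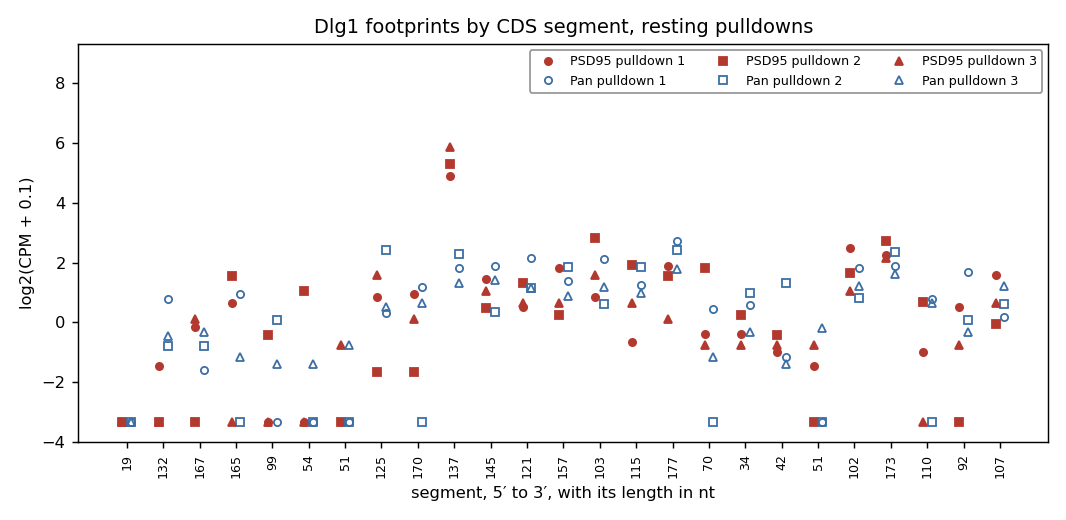
Footprints of Dlg1 in the 6 resting pulldowns as log2(CPM + 0.1) for its 25 coding segments in transcript order, with the segment length in bases on the x axis. The 137-base segment stands out, at 29.5 to 58.0 CPM with TurboID-PSD95 and 2.39 to 4.74 CPM with Pan-TurboID, a 132-base segment near the 5′ end is lower with TurboID-PSD95 at counts of 14 or fewer, and symbols at the bottom are counts of 0.

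On the lower side, Cebpz was the 1 gene that passed. It had 84.0, 65.4 and 66.8 CPM with TurboID-PSD95 and 149, 130 and 184 CPM with Pan-TurboID. Every TurboID-PSD95 value lay below every Pan-TurboID value, and the log2 fold change was -1.08 (SE 0.18, edgeR FDR 0.0053), 2.12-fold lower. Of its 14 coding segments with at least 60 counts (gene at chr17:78919881-78937030), 6 were lower in 3 of 3 pairs and none was higher. The share of all segments lower in 3 of 3 pairs was not counted. Segment counts here and below describe genes chosen for being lower in 3 of 3 pairs. The longest exon of Cebpz, of 1493 bases, had 41.0, 20.3 and 38.5 CPM against 80.1, 63.9 and 118 CPM. In the inputs the log2 difference was -0.13 (SE 0.18). The call rested on all 3 replicates: leaving out replicate 1, 2 or 3 gave edgeR FDRs of 0.0847, 0.357 and 1.0, with log2 fold changes of -1.21, -1.09 and -0.90. Cebpz also did not pass without the replicate block (edgeR FDR 0.471) or with the 12 pulldowns alone (edgeR FDR 0.153).

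Psmc5, an ATPase subunit of the regulatory particle of the proteasome, had 144, 146 and 194 CPM with TurboID-PSD95 and 248, 290 and 361 CPM with Pan-TurboID, with no overlap (log2 fold change -0.90, SE 0.17, edgeR FDR 0.0543). It passed in edgeR's likelihood ratio test, which called 3 genes in all. Map2, whose microtubule-associated protein marks dendrites, was among the most abundant CDSs, with 2243, 2695 and 2054 CPM against 3280, 3788 and 4299 CPM. For Map2, too, the groups did not overlap, and its log2 fold change was -0.70 (SE 0.17, 95% interval -1.05 to -0.35, edgeR FDR 0.629). Of the 12 coding segments of Map2, 8 were lower and none higher in 3 of 3 pairs. Its exon of 3741 bases had 1491, 1862 and 1388 CPM against 2332, 2702 and 3002 CPM, whereas its first coding exon of 262 bases had 56.1, 80.9 and 55.6 CPM against 55.5, 72.0 and 63.8 CPM. Map2 in the inputs was at a log2 difference of -0.03.

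The other 7 named genes did not pass in the 24-library edgeR fit (FDR 0.618 to 0.701). All 10 named lower genes passed with the 6 resting pulldowns alone (edgeR FDR 3.4e-10 to 0.0088) and by limma voom on the 24 libraries (FDR 4.5e-07 to 0.0066). Over all genes, 0.631% were called lower in the first of these fits and 0.792% in the second. Pclo, the large scaffold Piccolo of the presynaptic active zone, had 657, 813 and 903 CPM against 996, 1271 and 1526 CPM. Of its 24 segments with at least 60 counts, 7 were lower and 2 higher in 3 of 3 pairs, and its first coding exon had 7.41, 10.6 and 9.27 CPM against 2.65, 7.58 and 4.35 CPM. Synpo, an actin-associated protein of the spine apparatus, had 26.9, 35.3 and 23.9 CPM against 58.5, 56.1 and 53.3 CPM. Sf3b1, a core splicing factor, was lower in 3 of 3 pairs in 21 of its 25 coding segments, at 349, 446 and 339 CPM against 526, 615 and 631 CPM. For these 3 genes, too, the baits did not overlap. Ccn3 (a secreted matricellular protein), Cpsf6 (a factor of mRNA 3′ end processing), Rprm (a p53-induced cell cycle inhibitor) and Ubap2 (a ubiquitin-associated protein) had log2 fold changes of -0.74, -0.55, -0.90 and -0.66. All 10 named lower genes had groups that did not overlap, a pattern that, among genes with a mean log2 CPM of at least 4, 6.05% showed on the lower side. The genes were picked for their small p in these libraries. Their count without overlap and their passing in the other fits therefore describe them and test nothing.

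The depolarized pulldowns gave a second reading of the same 10 genes. The naming rule did not rank that contrast, but these libraries had a share in the estimate of the spread behind its p-values. By the methods, resting and activated samples of a biological replicate were also handled at the same time, so these readings are not independent. All 10 were lower with TurboID-PSD95 there as well, in 3 of 3 pairs each, against 8.66% of genes at this level of expression. Their log2 fold changes after depolarization ranged from -0.87 (Psmc5) to -0.26 (Cpsf6). Cebpz had 41.9, 48.7 and 85.7 CPM against 75.5, 95.1 and 112 CPM, and Map2 had 2096, 2623 and 2860 CPM against 5947, 3586 and 4108 CPM. In 4 of the 10 genes the depolarized groups did not overlap, which 2.25% of genes did on the lower side. None of the 10 passed in the depolarized contrast itself, where Psmc5 came closest (log2 fold change -0.87, SE 0.17, edgeR FDR 0.093), and 2 of 13003 genes (0.0154%) passed, Dlg4 and the kinase Prpf4b, both higher.

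On the higher side, apart from Dlg4, no gene passed in the 24-library edgeR fit, and the 9 genes named by the same rule had FDRs of 0.701 to 0.953. All 9 passed with the 6 resting pulldowns alone (edgeR FDR 1.9e-06 to 0.049), and 8 of them, all but Sstr2, by limma voom on the 24 libraries. Over all genes, 0.352% were called higher in the first of these fits and 0.446% in the second. The 9 genes were picked for their small p in these same libraries, so their passing describes them and tests nothing. Fosb, an activity-induced transcription factor, had 16.5, 56.3 and 25.4 CPM with TurboID-PSD95 and 8.88, 14.9 and 18.2 CPM with Pan-TurboID, so the groups overlapped and replicate 2 carried most of the difference. Its input difference was 0.78 on the log2 scale, close to the pulldown value of 1.08. Spata13, a guanine nucleotide exchange factor, had 29.4, 18.4 and 16.1 CPM against 11.1, 9.47 and 9.54 CPM without overlap (log2 fold change 1.05, SE 0.28). Among the rest, Apoe (the lipoprotein of astrocytes), Fabp7 (a fatty acid carrier of radial glia and astrocytes), Aldoc (a glycolytic enzyme of astrocytes), Megf10 (an engulfment receptor) and Notch1 had log2 fold changes of 0.62, 0.74, 0.69, 0.86 and 0.54. Fabp7 had 270, 224 and 106 CPM against 170, 125 and 66.6 CPM, higher within each pair while the groups overlapped. Nrbp2, a pseudokinase, and Sstr2, a somatostatin receptor, were at 0.92 and 0.73, and Nrbp2 was counted on a transcript with 27.6% of its longest CDS. Only Spata13, Nrbp2 and Aldoc, 3 of the 9, had groups that did not overlap, which 2.9% of genes with a mean log2 CPM of at least 4 did on the higher side. This count, too, describes genes picked by their values in these libraries and tests nothing. In the depolarized pulldowns 5 of these 9 genes kept a positive fold change, where the median log2 fold change over all genes was -0.0064. Of the 9, 2 were higher there in 3 of 3 pairs, against 8.27% of all tested genes at any level of expression.

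**Figure D4:**
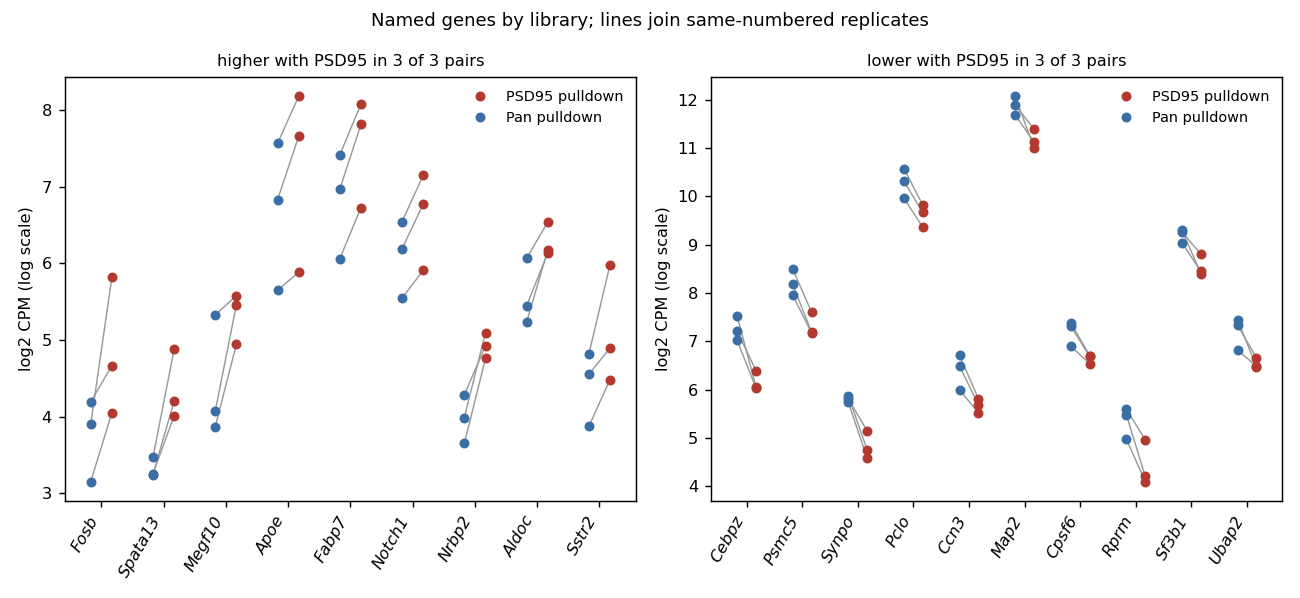
Log2 CPM of the named genes in each resting pulldown, with a line joining the Pan-TurboID (blue) and TurboID-PSD95 (red) library of the same replicate number. In the right panel, all 10 lower genes have red points below every blue point; in the left panel, the red and blue points of 6 of the 9 higher genes overlap and the lines rise within each pair.

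Against this background, 17 lists of synaptic and other genes were described by their counts and medians. They covered 463 tested genes, of which none passed an edgeR FDR of 0.05, 10 were higher and 13 lower at an unadjusted p under 0.05 (4.97% in all, against 4.19% of all genes), and 441 lay within 0.5 of 0 on the log2 scale. With the 6 resting pulldowns alone, 6 members were called higher and 7 lower, against 0.352% and 0.631% of all genes in that fit. With limma voom, 4 members were called higher and 7 lower, against 0.446% and 0.792% of all genes. In both fits and both directions, the called members were a larger share of the 463 than the calls were of all genes, and no set test was run. Over all genes, 13.4% were higher and 16.8% lower in 3 of 3 pairs.

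Lists of the postsynaptic density had medians near 0 between the pulldowns. Between the inputs, the medians of scaffolds, glutamate receptors and adhesion proteins were -0.06, -0.15 and -0.10, so that those of the pulldown difference beyond the input difference were 0.09, 0.16 and 0.11, against 0.00034 over all genes. Other lists had values of that size or larger, among them -0.25 for endothelial and mural markers, -0.24 for immediate early genes and -0.17 for cytosolic ribosomal proteins. On the other side were 0.27 for astrocyte markers and 0.43 for mitochondrially encoded proteins. Of 29 scaffolds and PSD95 partners, 4 were higher and 5 lower in 3 of 3 pairs, with a median log2 fold change of 0.02. Shank1, Shank2 and Shank3, the deep scaffolds of the density, had -0.03, -0.15 and 0.02. Nos1, the neuronal nitric oxide synthase that binds PSD95, had the lowest value, with 36.4, 45.9 and 19.5 CPM against 45.1, 54.7 and 40.1 CPM (log2 fold change -0.51, SE 0.29). Of the 26 glutamate receptor and auxiliary subunits, 3 were higher and 5 lower in 3 of 3 pairs, with a median of 0.03. The AMPA receptor subunits Gria1 and Gria2 had 0.12 (SE 0.16) and 0.05 (SE 0.18), and the obligatory NMDA receptor subunit Grin1 had 0.03 (SE 0.15). The kainate receptor subunit Grik1 had 50.4, 66.2 and 62.9 CPM against 41.7, 45.9 and 43.1 CPM, without overlap (log2 fold change 0.44, SE 0.19), and Grin2a had 20.0, 21.0 and 11.7 CPM against 26.8, 22.7 and 22.03 CPM (-0.44, SE 0.28). Neither passed (edgeR FDR 1.0 for both).

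Adhesion proteins and kinases of the postsynapse were as close to 0. The 27 adhesion proteins, among them neuroligins and leucine-rich repeat proteins, had a median of -0.0059, and their values ranged from -0.29 to 0.28. Lrfn2 and Slitrk5, leucine-rich repeat adhesion proteins, moved the same way in all pairs at 0.28 (SE 0.20) and -0.15 (SE 0.18). The 22 kinases and phosphatases had a median of -0.0085 and a range from -0.23 (Prkar2b, a regulatory subunit of protein kinase A) to 0.20 (Akap5, which anchors that kinase at the synapse). Camk2a, the kinase whose mRNA is a standard example of a dendritic message, had a log2 fold change of -0.04 (SE 0.19). Of 20 classical dendritic mRNAs, 2 were higher and 2 lower in 3 of 3 pairs (median -0.03). Besides Map2, Bdnf, a neurotrophin, was lower in 3 of 3 pairs at -0.37 (SE 0.20), and Psd, an exchange factor for Arf GTPases, was higher in 3 of 3 pairs at 0.22 (SE 0.17).

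The cytoskeletal lists held single members that stood out and no common direction. Of 26 actin and spine regulators, 5 were higher and 8 lower in 3 of 3 pairs (median -0.05), with Synpo at -0.95, the actin-binding neurabin Ppp1r9a at -0.43 and the motor Myo6 at 0.31 (SE 0.25). Of 24 microtubule proteins and motors, 4 were higher and 3 lower in 3 of 3 pairs (median 0.05). The structural microtubule-associated genes Map2 and Map6 were at -0.70 and -0.55 (SE 0.17 for both), and the kinesin heavy chain Kif5a, an axonal and dendritic motor, was at 0.36 (SE 0.19) with 1470, 1822 and 1800 CPM against 1186, 1494 and 1284 CPM. Presynaptic and axonal genes, 30 in all, served as the opposite compartment. Among them, 1 was higher and 7 lower in 3 of 3 pairs, with a median of -0.03. The active zone scaffolds Pclo and Bsn were at -0.67 and -0.31 (SE 0.16 and 0.14), while the vesicle proteins Syp and Sv2a were at 0.06 and 0.03 and the fusion clamp Cplx2 at 0.23 (SE 0.34).

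RNA binders of transport granules had a median of -0.08 over 22 genes, with Stau1, a double-stranded RNA binder of transport granules, at -0.36 (SE 0.17). The mRNA binders Cpeb1 and Igf2bp2 were at 0.30 and -0.37 (SE 0.34 and 0.43). Of 23 chromatin regulators, 7 were higher and 9 lower in 3 of 3 pairs. Chd8, a chromatin remodeler, had 411, 455 and 718 CPM against 243, 369 and 371 CPM without overlap (log2 fold change 0.68, SE 0.22, edgeR FDR 0.953, and 1.1e-07 with the 6 resting pulldowns alone), and Chd3, Chd4 and Chd5 of the same family were higher in 3 of 3 pairs at 0.24 to 0.33. Kmt2c and Kmt2d, histone methyltransferases, were lower in 3 of 3 pairs at -0.22 and -0.28. Of 27 translocon proteins and chaperones of the endoplasmic reticulum, 2 were higher and 10 lower in 3 of 3 pairs, and the median was -0.13 (-0.12, -0.12 and -0.17 in pairs 1 to 3, and -0.13 to -0.04 under the alternatives). The disulfide isomerases Pdia3 and Pdia4 were lower in each pair, at -0.33 and -0.36 (SE 0.14 and 0.16), while the translocation factor Sec62 was at 0.39 (SE 0.18). The 12 tested genes of MHC class I and antigen processing had a median of -0.13. Psmb9, an immunoproteasome subunit, and H2-T23, a class I molecule, had few counts and wide errors, at 0.93 (SE 0.97) and -0.59 (SE 0.61).

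Acaca, which encodes acetyl-CoA carboxylase, an enzyme that carries biotin in every cell and can bind streptavidin without TurboID, had 799, 230 and 387 CPM with TurboID-PSD95 and 488, 184 and 208 CPM with Pan-TurboID. It was higher in each pair while the groups overlapped (log2 fold change 0.66, SE 0.24, edgeR FDR 1.0), and it passed with the 6 resting pulldowns alone (edgeR FDR 3.4e-07) and by limma voom (FDR 0.0081). The other tested carboxylase genes, Pcca, Mccc1 and Acacb, were at 0.23 (SE 0.21), 0.27 (SE 0.39) and -0.13 (SE 0.85). Immediate early genes went both ways, with Fos at 75.2, 220 and 162 CPM against 140, 247 and 253 CPM (log2 fold change -0.57, SE 0.20), lower in each pair, while its relative Fosb was higher in each. In the inputs, Fos had the opposite sign, at a log2 difference of 0.33 (SE 0.19). Arc, a synaptic protein whose mRNA enters dendrites, was higher in 2 of 3 pairs at 0.57 (SE 0.27), and at 0.52 in the inputs. The 78 cytosolic ribosomal proteins, 74 nuclear-encoded respiratory chain and ATP synthase subunits and 13 mitochondrially encoded proteins had medians of -0.05, -0.07 and 0.12. In 3 of 3 pairs, 6, 3 and 3 of them were higher and 12, 16 and 1 lower. Uqcr11, a subunit of complex III, had 78.5, 122 and 76.6 CPM against 124, 172 and 107 CPM (log2 fold change -0.55, SE 0.20). Its groups overlapped, and it was lower in each pair. Among the same lists, Ndufa13 (complex I) was at 0.22, the ribosomal protein Rpl15 at -0.67, and the mitochondrially encoded mt-Nd6 and mt-Nd4 at 0.33 and -0.11.

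**Figure D5:**
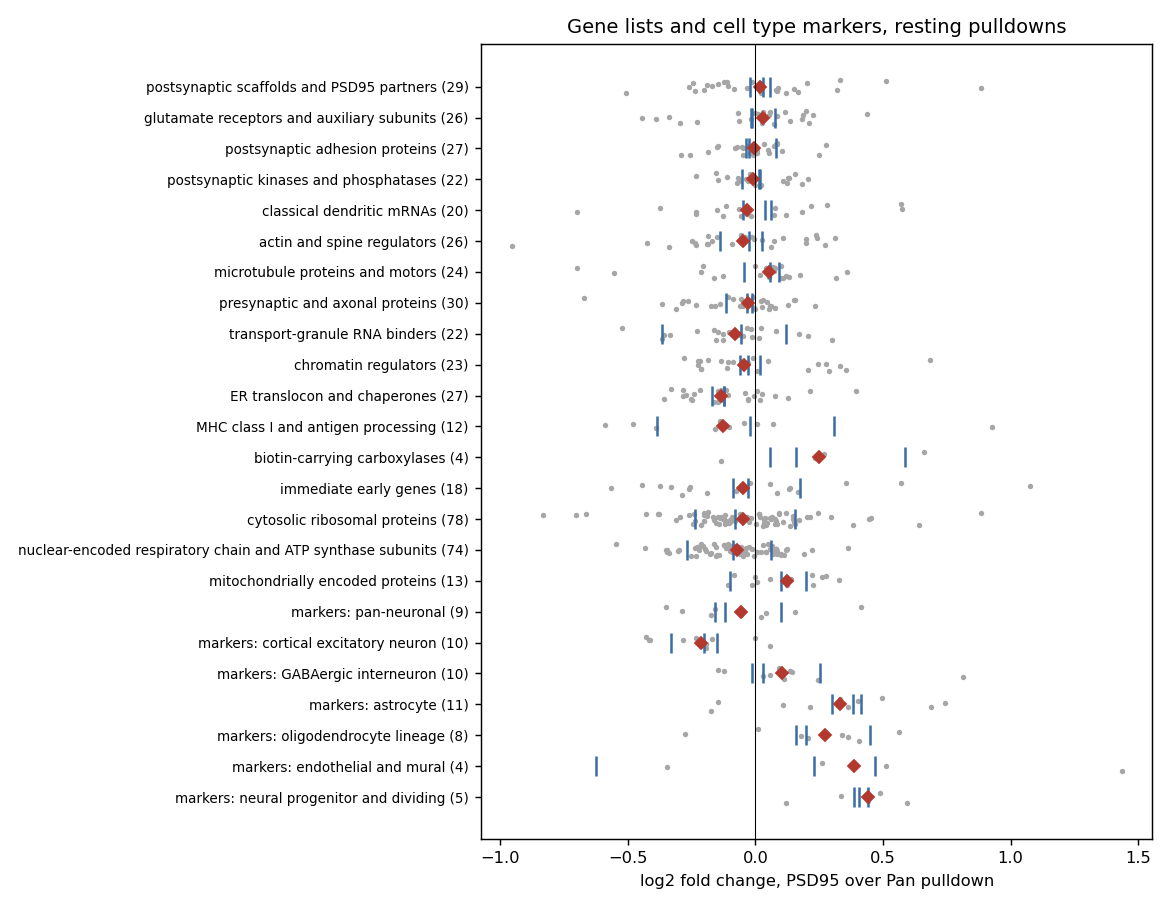
Log2 fold change of TurboID-PSD95 over Pan-TurboID pulldowns for the members of each gene list and cell type marker list (gray points), with the list median (red diamond) and the medians of the 3 same-numbered pairs (blue ticks); numbers of tested genes are in parentheses. Medians of the synaptic and cytoskeletal lists lie between -0.05 and 0.05, and those of astrocyte and progenitor markers lie at 0.33 and 0.44.

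Markers of other cell types had medians farther from 0 than the synaptic lists. Of 12 astrocyte markers, 11 were tested, 7 were higher and none lower in 3 of 3 pairs, and their median was 0.33 (0.41, 0.30 and 0.38 in pairs 1 to 3). Fabp7, Aldoc, the folate enzyme Aldh1l1 and Ndrg2 were higher at an unadjusted p under 0.05, at 0.74, 0.69, 0.50 and 0.40, whereas the glutamate transporter Slc1a2 and the water channel Aqp4 were at -0.17 and -0.15. Their summed level was 2002, 1675 and 997 CPM with TurboID-PSD95 and 1651, 1346 and 1000 CPM with Pan-TurboID. All 5 markers of progenitors and dividing cells had positive fold changes (median 0.44), 4 of them higher in 3 of 3 pairs, with summed levels of 427, 425 and 249 CPM against 311, 294 and 198 CPM. The dividing-cell gene Mki67 had 61.1, 62.5 and 67.3 CPM against 50.2, 29.4 and 45.3 CPM, without overlap. Markers of cortical excitatory neurons leaned the other way: 6 of 10 were lower and none higher in 3 of 3 pairs, and the median was -0.21. Neurod2, a transcription factor of these neurons, had 51.9, 73.2 and 82.4 CPM against 73.2, 101 and 101 CPM (log2 fold change -0.42, SE 0.16), lower in each pair.

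No marker passed an edgeR FDR of 0.05 in the 24-library fit, and 9 of 57 (15.8%) had an unadjusted p under 0.05, 7 higher and 2 lower. Over all genes the share was 4.19%, with 1.35% higher and 2.84% lower. With the 6 resting pulldowns alone, 3 astrocyte and 2 progenitor markers were called, all higher, against 0.352% of all genes called higher in that fit. By limma voom, 4 markers were called, all higher, against 0.446% of all genes. In the inputs the medians were 0.11 for astrocyte, 0.20 for progenitor and -0.09 for excitatory neuron markers, and in the depolarized pulldowns they were -0.12, 0.02 and -0.04. The part of cell composition in the named higher genes was not tested, and fewer cells of a type and less RNA per cell cannot be told apart in bulk libraries. The 10 GABAergic interneuron markers had a median of 0.10, the 8 tested oligodendrocyte lineage markers 0.27 and the 4 tested endothelial and mural markers 0.39. Under the alternatives, the oligodendrocyte median ran from 0.055 to 0.36 and the endothelial and mural median from -0.41 to 0.59. The endothelial and mural medians of pairs 1 to 3 were 0.47, 0.23 and -0.62, and none of these 4 markers moved the same way in 3 of 3 pairs.

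The inputs, read before any pulldown, separated the baits even less. None of 13003 genes (0%) passed by edgeR, with either of its tests, or by DESeq2, and 160 (1.23%) had an unadjusted p under 0.05 in the quasi-likelihood fit. Whether depolarization altered the difference between the baits was tested as an interaction. Again no gene (0%) reached an FDR of 0.05 by edgeR, while 519 (3.99%) reached an unadjusted p under 0.05. For Dlg4, the depolarized pulldowns had 350, 1435 and 5325 CPM with TurboID-PSD95 and 17.7, 27.6 and 22.8 CPM with Pan-TurboID, a log2 fold change of 6.18 (SE 0.47) beside 5.43 at rest.

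Ribosomes on 5′ untranslated regions were compared for the same transcripts. Of 10175 genes tested, none passed an edgeR FDR of 0.05, 442 (4.34%) had an unadjusted p under 0.05, 85 higher (0.835%) and 357 lower (3.51%), and edgeR's likelihood ratio test called 6. The median log2 fold change was -0.18, and 63.2% of genes were lower with TurboID-PSD95. The median moved to -0.05, -0.30 and -0.16 when replicate 1, 2 or 3 was left out. Rpl32, a ribosomal protein with near-identical copies in the genome, had the smallest p, with 34.4, 44.4 and 131 CPM against 21.7, 24.4 and 14.9 CPM in its 5′ untranslated region (log2 fold change 1.64, SE 0.39, edgeR FDR 0.477) and -0.12 in its CDS.

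The division of footprints between parts of the mRNA was compared by exact permutation of the 6 libraries, which cannot give a p below 0.1 and does not use the pairing, so no share could pass. Of the counts in the longest transcripts, 5′ untranslated regions held 7.31% ± 2.40 with TurboID-PSD95 and 7.98% ± 1.52 with Pan-TurboID (SD, n = 3 each; two-sided exact permutation test, p = 0.6). CDSs held 89.9% ± 2.21 and 89.7% ± 1.52 (exact p = 1.0), and mitochondrially encoded genes held 0.493% ± 0.158 and 0.469% ± 0.130 of CDS counts (exact p = 0.8). The 3′ untranslated regions held 2.74% ± 0.59 with TurboID-PSD95, at 2.45%, 2.35% and 3.42% in replicates 1 to 3, and 2.30% ± 0.03 with Pan-TurboID. They were higher in 3 of 3 pairs (exact p = 0.1, and 0.8 adjusted over the 8 comparisons of this kind), with replicate 3, the shallowest library, farthest from the others.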

How the data were processed

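Footprints were counted in 6 resting pulldowns, fitted with the other 18 libraries of the KCl experiment. The authors trimmed reads, cut off molecular identifiers and aligned with Rsubread to mm10, and deposited raw counts per exon segment, which per the file headers plastid made from 5′ ends of reads of 25 to 100 bases at offset 0. Such an end lies upstream of the decoded codon, which shifts counts toward the preceding segment. Strand and multiply aligned reads are not described, so overlapping genes and near-identical copies are uncertain.

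Deposited counts were summed over the longest transcript per gene (22375 genes, with 66664 of 67238 coding transcripts matched to GENCODE M21). The main test was edgeR 4.0.16 in R 4.3.3 (quasi-likelihood, robust, TMM, filterByExpr, Benjamini-Hochberg, FDR 0.05) on 8 group means plus a block for replicate number nested in condition. The numbers pair the samples: libraries of 1 replicate were processed together, file headers keep each number in its own folder, and 18 of 18 correlations of deviations at rest were over 0.1 (0.153 to 0.524), as were 17 of 18 after depolarization. Replicates differed beyond sampling noise. An SE is the fold change over the root of F. DESeq2 1.42.0 and limma 3.58.1 served as alternatives.

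Named genes were Dlg4, the 10 with the smallest p per direction that moved in 3 of 3 pairs (filled with genes that did not pass, at a mean log2 CPM of at least 4, without ribosomal protein, histone, Gm and Rik names), and the list members with the largest rise and fall in 3 of 3 pairs; others were chosen after their values were seen. Some named members are not reported here. Scripts were tested on simulated data. The comparison, members and lists were chosen with earlier results of these data known.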

Additional observations from a re-analysis of the deposited data

How the results depend on the processing

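Of the 2 genes called between the resting pulldowns, 1 remained without the replicate block, 1 with the 12 pulldowns alone and 1 (Cebpz) with Dlg4 left out; 120 were called with the 6 resting pulldowns alone, 161 with limma voom, 12 with no filter on low counts and 0 to 1 without a replicate. The block stands for paired replicates: without it Cebpz had a log2 fold change of -1.09 (edgeR FDR 0.471). Without replicate 2, Dlg4 had 5.61 (edgeR FDR 0.802). For inputs, 0 genes became 1 with no filter. Pulldown over input, with Dlg4 as its 1 gene, gave 0 without the block, with the transcript of the highest count, with the longest CDS (an alternative chosen after seeing the data) and without replicate 2. The interaction with depolarization, at 0, gave 6 with no filter and 0 to 5 without a replicate. For 5′ untranslated regions, 0 became 6 by the likelihood ratio test and 0 to 4 without a replicate. Dlg1 without its 1 segment, also chosen after seeing the data, reversed to -0.14, and the difference in CDS share, 0.232 percentage points, reversed to -0.299 without replicate 1 (range -0.299 to 0.53 without a replicate). Over 48 named genes, 656 of 719 values under alternatives kept direction and side of the threshold. Only 2 genes passed in the main fit, so keeping the side mostly meant not passing again. Another 56 values passed where they had not, 24 of them with 6 pulldowns and 22 by voom. The cause of these shifts was not tested. Limits are 3 libraries per group, 1 shallow library (TurboID-PSD95 replicate 3) and 540 genes whose chosen transcript holds under 50% of their longest CDS.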
